A study of Mus musculus with 6 samples.

Results

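The genes described here encode ligands that a tumor cell can show to T cells, natural killer (NK) cells and phagocytes. They were taken by name, as the rows of the deposited expression table for Cd274, Pdcd1lg2, Cd276, Pvr, Nectin1, Nectin2, Nectin3, Lgals9, Cd47 and Cd24a, which are 10 of the 55487 genes listed. RNA-seq was available for RM-1, a mouse prostate cancer cell line grown in culture. The 3 vector libraries came from RM-1 cells given a blank lentivirus, and the 3 Bhlhe22 libraries from RM-1 cells given a lentivirus that overexpresses Bhlhe22, a basic helix-loop-helix transcription factor. Both groups therefore carry a lentivirus. Clone number, promoter, time after infection and any stimulus are not given in the labels. The labels name no other cells in the cultures, so the values describe ligand RNA in tumor cells.

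Checkpoint ligands work in pairs with receptors on immune cells. PD-L1 and PD-L2, encoded by Cd274 and Pdcd1lg2, bind PD-1 on T cells and restrain them. PVR (CD155) and nectin-2 (CD112) bind the activating receptor DNAM-1 and the inhibitory receptor TIGIT, so the same ligand can favour or dampen killing. CD47 and CD24 signal to SIRPα and to sialic acid-binding receptors on phagocytes and limit engulfment. Much of the control of these proteins lies after transcription, which RNA counts do not measure.

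Total counts ran from 15464709 to 25129552 per library. Bhlhe22 itself was counted 0 times in every vector library and 8706, 14785 and 17995 times under overexpression, so the labels held for the overexpressed gene. Leukocyte markers gave little signal: 16 of 24 were at 0 in all 6 libraries, among them Cd3e, Itgam, Adgre1, Lyz2 and Tyrobp, and Ptprc (CD45) did not exceed a mean of 0.07 CPM (counts divided by the TMM-scaled library size and set to a common depth). The 24 markers summed to between 75.3 and 83.1 CPM in vector and 71.2 to 78.3 CPM in Bhlhe22 libraries, nearly all of it from Cd68, Cd14 and Ly6g. Of the 4 that could be tested 0 were higher and Ly6g was lower (log2 fold change -1.31, edgeR adjusted p = 7.3e-04); the part of these markers in the ligand results was not tested. As background for each marker list here, 19.6% of all tested genes had an edgeR adjusted p under 0.05 (10.4% higher, 9.28% lower). Of 14 endothelial and fibroblast markers, 8 were tested, and Pdgfrb was higher and Col1a2 lower, the latter on few counts. Of 10 mesenchymal genes, all tested, Snai2 was higher and S100a4 and Vim lower. Among these marker genes, the calls of Pdgfrb, S100a4, Vim and Krt19 were each lost without any vector replicate, and those of Pdgfrb and Vim also without Bhlhe22 replicate 2 and those of S100a4 and Vim without Bhlhe22 replicate 3. Among 16 prostate epithelial markers the keratin genes Krt8 (lower), Krt18 (not called) and Krt19 (higher) were abundant, while Hoxb13, Pbsn and Krt5 were listed at 0 and Cdh1 averaged 0.18 CPM in vector cells. A listed 0 is weak evidence in this table, because Itgb1, an integrin gene of nearly all adherent cells, was also at 0 in every library.

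Promoter sequences are shown for called members, since Bhlhe22 belongs to a factor family that binds E-boxes. RefSeq promoters (GRCm38.p6) were found for 7 of the 10 members, and not for Pvr, Nectin1 or Cd24a. In the 250 bases before each start, E-boxes (CANNTG, which reads the same on both strands) occurred in 66.2% of 32851 promoters. The E-box forms CATATG and CAGATG, both contained in CANNTG, occurred in 3.46% and 14.4%. The interferon response core (GAAA, any 2 bases, GAAA) was found on either strand in 2.98% and the interferon-gamma site TTCNNNGAA in 7.02%. An NF-kB-like motif (GGG, any 5 bases, CC) was found in 45.8% of promoters and in 5 of the 7 members, not in Cd274 or Cd47. Nectin2, Lgals9 and Cd274 each had 1 E-box in this window, Pdcd1lg2 had 2, and Cd276, Nectin3 and Cd47 had 0. No member window held either E-box form or the interferon-gamma site. Lgals9 alone among the 7 held the interferon response core. These matches are descriptions of letters, and binding of Bhlhe22 was not measured here.

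The stretches free of annotated exons follow, read 5′ to 3′ on the strand of the gene, with E-boxes and interferon response cores in capitals. Nectin2 is chr7:19749574-19749823 on the minus strand, with CAGGTG from 53 to 48 bases before the RefSeq start. That start lies 910 bases inside the deposited span of Nectin2, so the window is within the annotated gene, though in none of its exons. Lgals9 is chr11:78984947-78985174 on the minus strand, with CATGTG from 182 to 177 bases before the RefSeq start (22 bases inside the deposited span) and the interferon response core, in its reverse orientation, from 55 to 46. Cd274 is chr19:29367391-29367437 on the plus strand, and its RefSeq start is 17 bases before the deposited one. It is short because 185 of the 250 bases searched lie in exons of Plgrkt, a plasminogen receptor gene on the other strand. The single E-box of the Cd274 window, CACCTG from 235 to 230 bases before the start, falls outside the stretch shown.
Nectin2: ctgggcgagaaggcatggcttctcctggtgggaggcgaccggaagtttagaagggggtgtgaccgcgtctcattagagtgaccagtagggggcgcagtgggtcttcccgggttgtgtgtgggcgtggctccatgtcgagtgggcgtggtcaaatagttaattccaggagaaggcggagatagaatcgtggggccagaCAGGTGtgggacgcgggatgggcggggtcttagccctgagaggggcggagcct
Lgals9: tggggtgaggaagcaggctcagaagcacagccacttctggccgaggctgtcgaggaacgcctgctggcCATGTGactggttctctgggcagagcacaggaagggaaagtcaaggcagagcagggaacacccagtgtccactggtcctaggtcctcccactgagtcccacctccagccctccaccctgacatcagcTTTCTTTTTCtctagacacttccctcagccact
Cd274: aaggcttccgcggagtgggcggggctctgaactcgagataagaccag

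Ligand genes changed in both directions in Bhlhe22 cells. Nectin2, Cd274 and Pvr were higher, Cd24a, Nectin1 and Lgals9 were lower, and Cd47, Cd276 and Nectin3 did not pass the test (edgeR quasi-likelihood test, Benjamini-Hochberg adjusted p under 0.05 over all 14663 genes tested). Over all tested genes 19.6% were called, 10.4% higher and 9.28% lower, against 6 of the 9 members that passed the filter on low counts. The tenth member, Pdcd1lg2, was too low to be tested. The groups did not overlap in 8 of the 9 tested members, as they did not in 40.8% of all tested genes. The 9 tested members had a median log2 fold change of -0.14, against 0.01 over all tested genes, and a median absolute change of 0.44 against 0.23. Every tested member had at least 79 counts in each library, so none entered the test through 1 group alone. Whether the replicates came from separate cultures is not in the labels, so the p-values measure the spread between these samples, which may be technical.

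**Figure D1:**
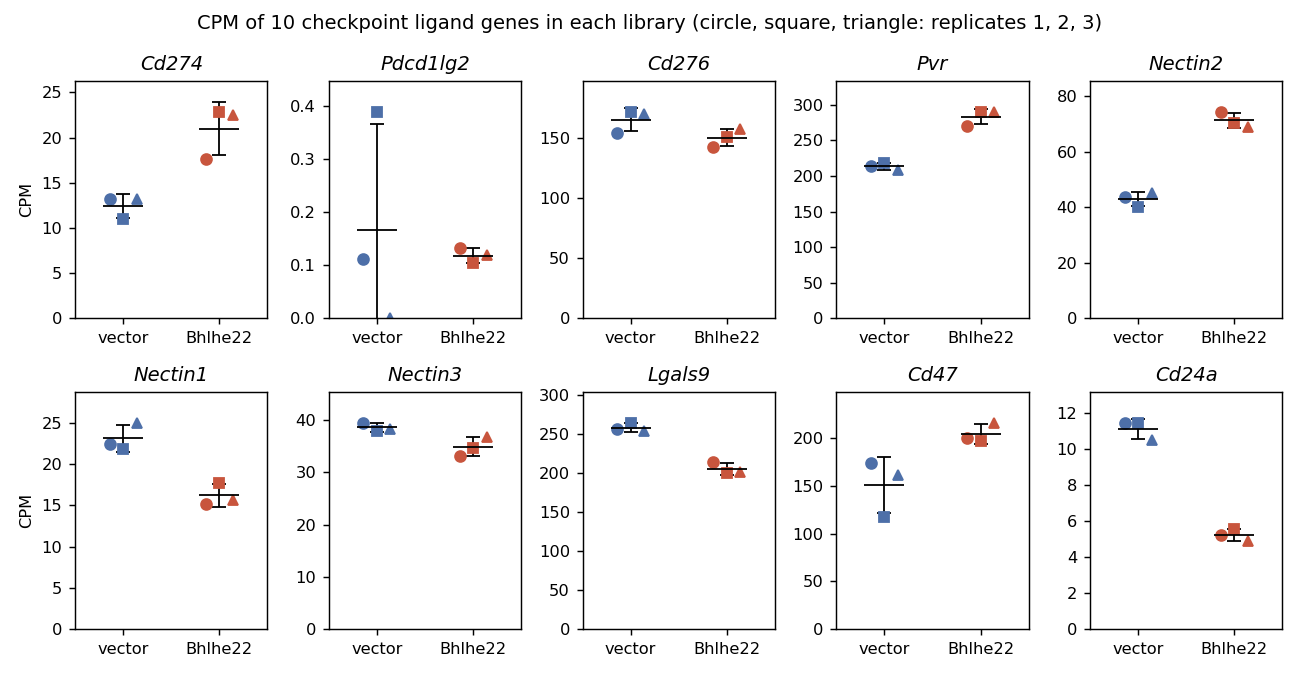
CPM of each of the 10 genes in the 3 vector (blue) and 3 Bhlhe22 (red) libraries, with mean and SD in black; every vertical axis starts at 0. Cd274, Pvr and Nectin2 lie wholly higher in Bhlhe22 libraries, and Nectin1, Lgals9 and Cd24a wholly lower. Cd47 also lies wholly higher and Nectin3 wholly lower, though neither was called. Vector replicate 2 stands below the other vector libraries for Cd47.

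Of the PD-1 ligands, only PD-L1 RNA was expressed at a level that could be tested. Cd274 (ENSMUSG00000016496, chr19:29367455-29388095, plus strand, GRCm38) had 13.2, 10.9 and 13.2 CPM in vector replicates 1, 2 and 3, and 17.6, 22.8 and 22.5 CPM in Bhlhe22 replicates 1, 2 and 3. All 3 Bhlhe22 libraries were above all 3 vector libraries, with Bhlhe22 replicate 1 the closest to them. The change was 1.69-fold (log2 fold change 0.75, SE 0.14, edgeR adjusted p = 0.0104). Its log2 fold change ran from 0.67 to 0.86 when each library was left out in turn, and it was called each time.

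The Cd274 row may hold reads of other genes. In the GENCODE M21 annotation an opposite-strand gene covers 14.1% of its exon length, and the use of strand in counting is not stated. Stretches of at least 75 bases at 95% identity or more to transcripts of 48 other genes covered 18.1% of its longest transcript. The part of either in the change was not tested.

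Pdcd1lg2 (ENSMUSG00000016498, chr19:29410919-29471161), which starts 22.8 kb beyond the end of Cd274, gave counts of 2, 8 and 0 in vector and of 2, 2 and 3 in Bhlhe22 replicates. These are near the 3 counts that serve as the detection floor, so no fold is given. A difference in PD-L2 RNA was not detectable at this depth.

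The gene neighbours of Cd274 did not share its call. Plgrkt, whose start lies 64 bases from that of Cd274 in the opposite direction, had 20.7, 21.2 and 21.8 CPM in vector and 30.2, 22.2 and 22.4 CPM in Bhlhe22 libraries (log2 fold change 0.23, 95% interval -0.09 to 0.55, edgeR adjusted p = 0.284). Jak2, the kinase of interferon-gamma signalling, had a log2 fold change of 0.05 and Ric1, a Golgi trafficking gene, of 0.38, neither called. Of 12 tested genes on a list for this stretch of chromosome 19, Cd274 was called higher and 0 were called lower. Over all tested genes 19.6% were called. The list's median log2 fold change, Cd274 included, was 0.23, against 0.01 over all tested genes. Plpp6 (0.36, 95% interval 0.05 to 0.67) and Ranbp6 (0.27, 0.05 to 0.50) leaned the same way without a call. Ak3 (-0.13), Uhrf2 (-0.09) and Il33 (-0.54) leaned the other way. The difference between Cd274 and its neighbours was not itself tested.

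**Figure D2:**
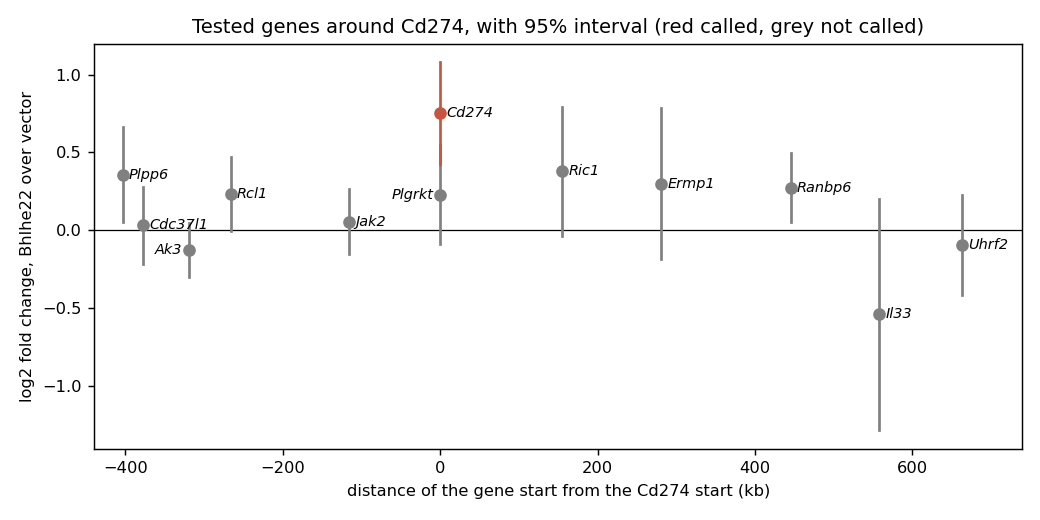
Log2 fold change (Bhlhe22 over vector, point) with its 95% interval (line) for 12 tested genes, against the distance of each gene's start from the Cd274 start in kb. Cd274 (red, 0.75) was called higher, and the other 11 genes (grey) did not pass the adjusted threshold.

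B7-H3, encoded by Cd276, is a relative of PD-L1 on many carcinomas. Cd276 (ENSMUSG00000035914, chr9:58524298-58555437, minus strand) had 154, 171 and 170 CPM in vector and 143, 151 and 157 CPM in Bhlhe22 libraries. The ranges overlapped, since vector replicate 1 lay below Bhlhe22 replicate 3. The log2 fold change was -0.14 with a 95% interval from -0.31 to 0.04 (edgeR adjusted p = 0.252), which leaves room for a fall of up to 0.31 on the log2 scale. The opposite-strand gene Gm10657 covers 11.4% of the Cd276 exon length. It matched 11.5% of the longest Cd276 transcript at 95% identity or more, so reads may be shared. The part of this in the result was not tested.

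Nectin2 and Pvr, the ligands shared by DNAM-1 and TIGIT, were both higher. Nectin2 (ENSMUSG00000062300, chr7:19716644-19750483, minus strand) had 43.7, 40.1 and 45.0 CPM in vector and 74.2, 70.4 and 69.0 CPM in Bhlhe22 libraries. The libraries of each group lay close together, and the gap between groups was larger than either range. The change was 1.66-fold (log2 fold change 0.73 with SE 0.08, edgeR adjusted p = 0.00126), and ran from 0.68 to 0.77 over the 6 fits that left out a library. The opposite-strand gene Gm20512 covers 3.86% of the Nectin2 exon length and matched 5.08% of its longest transcript, so reads may be shared here too.

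Pvr (ENSMUSG00000040511, chr7:19903578-19921160, minus strand), the shared ligand of DNAM-1, TIGIT and CD96, had 214, 219 and 209 CPM in vector and 271, 290 and 290 CPM in Bhlhe22 libraries. Again no library of one group fell in the range of the other. It was 1.33-fold higher (log2 fold change 0.41 with SE 0.06, edgeR adjusted p = 0.00578), and it was called without each library in turn. Both genes lie on chromosome 7, with 153 kb between them.

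The ligands differed in level as well as in change. On the FPKM scale, which divides by gene length, Pvr exceeded Nectin2 by 2.88 ± 0.239 times in vector and 2.30 ± 0.171 times in Bhlhe22 libraries (SD, n = 3). Their summed FPKM was 40.2 ± 0.204 in vector and 55.9 ± 1.22 in Bhlhe22 cells. These ratios and sums rest on the lengths behind the deposited FPKM values and are given as descriptions, with no test.

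Of the nectins known chiefly for holding cells together, Nectin1 was lower and Nectin3 was not called. Nectin1 (ENSMUSG00000032012, chr9:43743984-43832658, plus strand, end as deposited) had 22.5, 21.9 and 25.03 CPM in vector and 15.2, 17.8 and 15.7 CPM in Bhlhe22 libraries. All Bhlhe22 values were below all vector values, and the change was a log2 fold change of -0.51 (SE 0.10, edgeR adjusted p = 0.0153). The call was lost without vector replicate 1 (log2 fold change -0.53, edgeR adjusted p = 0.0576) and without vector replicate 3 (-0.45, 0.0661).

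Nectin3 (ENSMUSG00000022656, chr16:46387706-46498525, minus strand), a binding partner of nectin-1 and nectin-2, had 39.5, 37.9 and 38.4 CPM in vector and 33.2, 34.7 and 36.8 CPM in Bhlhe22 libraries. The ranges did not overlap, yet the log2 fold change of -0.14 did not pass the test (95% interval -0.33 to 0.04, edgeR adjusted p = 0.249). Per length, Nectin2 exceeded Nectin1 by 3.27 ± 0.132 times in vector and 7.78 ± 0.816 times in Bhlhe22 cells.

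Galectin-9, a sugar-binding protein that is released without a signal peptide and binds TIM-3 on T cells, is encoded by Lgals9 (ENSMUSG00000001123, chr11:78962974-78984946, minus strand). Its RNA stood at 255, 264 and 253 CPM in vector and 213, 200 and 201 CPM in Bhlhe22 libraries. The groups did not overlap, and the log2 fold change was -0.33 (SE 0.06, edgeR adjusted p = 0.0125). Leaving out any vector replicate, or Bhlhe22 replicate 2, ended the call at log2 fold changes from -0.34 to -0.31 (edgeR adjusted p of 0.0508 to 0.0659).

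Of 8 tested galectin genes and relatives, 3 were higher and 2 lower, with a median log2 fold change of 0.05. Over all tested genes 19.6% were called. The lower ones were Lgals9 and Lgals3bp (-0.23), the latter called only without Bhlhe22 replicate 1 among the fits that left out a library. Lgals3, for galectin-3, had 146, 132 and 116 CPM in vector and 427, 336 and 246 CPM in Bhlhe22 libraries (log2 fold change 1.36, edgeR adjusted p = 0.00428). Lgals8 (0.57) and Lgals7 (1.12) were also higher, and the 3 were called without each library in turn. On the FPKM scale Lgals9 was 1.76, 2.01 and 2.19 times Lgals3 in vector and 0.5001, 0.596 and 0.820 times in Bhlhe22 replicates, so their order was the reverse in all 3.

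Of the signals read by phagocytes, Cd24a passed the test and Cd47 did not; the difference between them was not tested. Cd24a (ENSMUSG00000047139, chr10:43578284-43584265, plus strand), which encodes the small glycolipid-anchored protein CD24, had 11.4, 11.5 and 10.5 CPM in vector and 5.19, 5.53 and 4.86 CPM in Bhlhe22 libraries. The highest Bhlhe22 library lay well below the lowest vector library. The log2 fold change of -1.10 was the largest in size among the members (SE 0.11, edgeR adjusted p = 0.00105) and ran from -1.15 to -1.05 without each library in turn. Counts were low, from 79 to 236 per library, and 11.9% of its longest transcript matched the gene Gm6212 at 95% identity or more, so reads from there may be split.

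Cd47 (ENSMUSG00000055447, chr16:49800533-49915010, plus strand), the ligand of SIRPα, had 174, 118 and 161 CPM in vector and 200, 197 and 216 CPM in Bhlhe22 libraries. No vector library reached the lowest Bhlhe22 library, but vector replicate 2 lay well below the other vector libraries. The log2 fold change of 0.44 (95% interval 0.10 to 0.77) was not called by edgeR (adjusted p = 0.0719) and was called by DESeq2 (0.43, adjusted p = 0.0339). Without vector replicate 2 it was 0.29 (edgeR adjusted p = 0.105). Per length, Cd47 RNA exceeded Cd24a RNA by 5.50 ± 1.18 times in vector and 16.0 ± 1.81 times in Bhlhe22 cells (SD, n = 3).

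**Figure D3:**
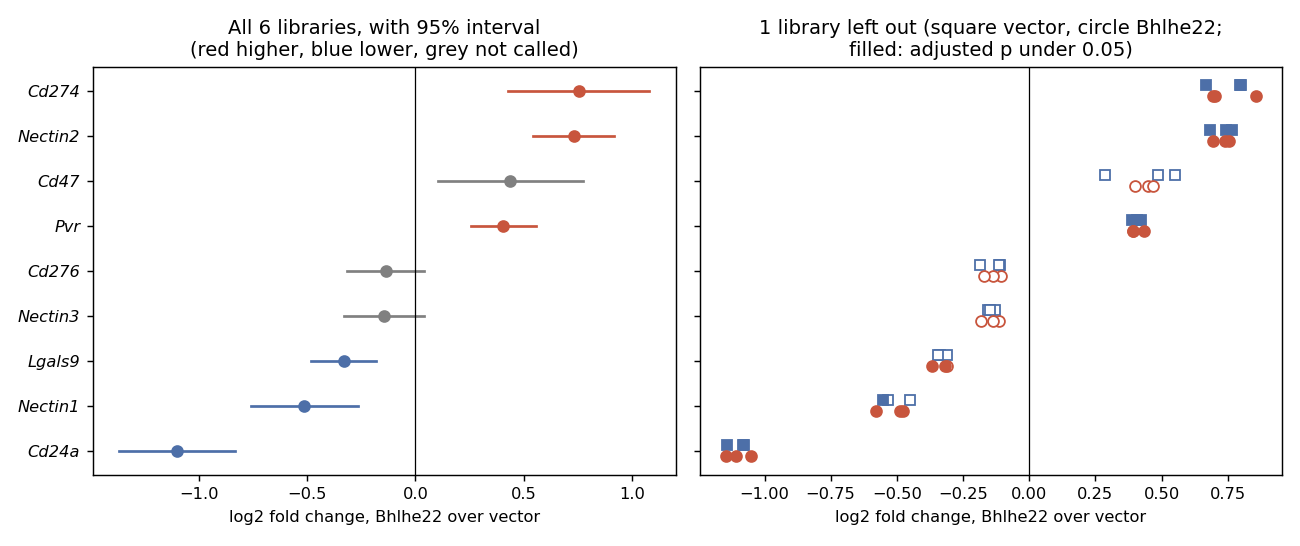
Log2 fold changes of the 9 tested members, at left with all 6 libraries (point, 95% interval as a line) and at right with 1 library left out (squares: a vector library; circles: a Bhlhe22 library; filled where edgeR's adjusted p was under 0.05). Cd274, Nectin2, Pvr and Cd24a stay filled throughout, Nectin1 and Lgals9 lose some, and Cd47, Cd276 and Nectin3 are open in all.

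Ranked per length, Lgals9 led in both groups at a mean of 79.3 FPKM in vector and 62.1 FPKM in Bhlhe22 cells, above 96.0% and 94.9% of tested genes. In vector cells it was followed by Pvr (29.8 FPKM), Cd276 (25.6), Cd47 (19.6) and Nectin2 (10.4), whose ranges over 3 libraries did not overlap. Cd24a (3.57), Cd274 (3.46) and Nectin1 (3.18) came next, and neighbours among these 3 did not differ beyond their spread. Nectin3 (2.50) and Pdcd1lg2 (0.0629) were last. This order rests on the lengths behind the deposited FPKM values. They exceeded the GENCODE M21 exon length in unequal degree, though not for Cd274 (3622 bases in both). Cd276 had 6507 against 3658 bases, Lgals9 3269 against 2137 and Nectin1 7328 against 5653. Cd47 had 7760 against 6276, Pvr 7227 against 6122 and Cd24a 3133 against 2580. With CPM divided by annotated length instead, Lgals9 would still lead in both groups, but other places would differ. Cd276 would stand above Pvr in vector cells and below it in Bhlhe22 cells. It would stand above Cd47 in every library of both groups. Cd24a and Nectin1 would stand above Cd274 in vector cells.

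In Bhlhe22 cells the order on the same deposited lengths changed at 3 places. Cd47 (26.1 FPKM) stood above Cd276 (22.9 FPKM), and their ranges did not overlap. On annotated lengths Cd47 would stay below Cd276, so this change of order rests on the deposited lengths. Cd274 (5.74 FPKM) was above the other low members, and Nectin3 (2.23 FPKM) and Nectin1 (2.19 FPKM), which overlapped, were both above Cd24a (1.64 FPKM). The ratio of Cd274 to Cd24a was 0.999, 0.825 and 1.09 in vector and 2.93, 3.57 and 3.999 in Bhlhe22 replicates. The 10 genes summed to 177 ± 1.41 FPKM in vector and 179 ± 3.22 FPKM in Bhlhe22 cells, while the share of Lgals9 in that sum was 44.7% ± 1.398 and 34.7% ± 1.49.

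**Figure D4:**
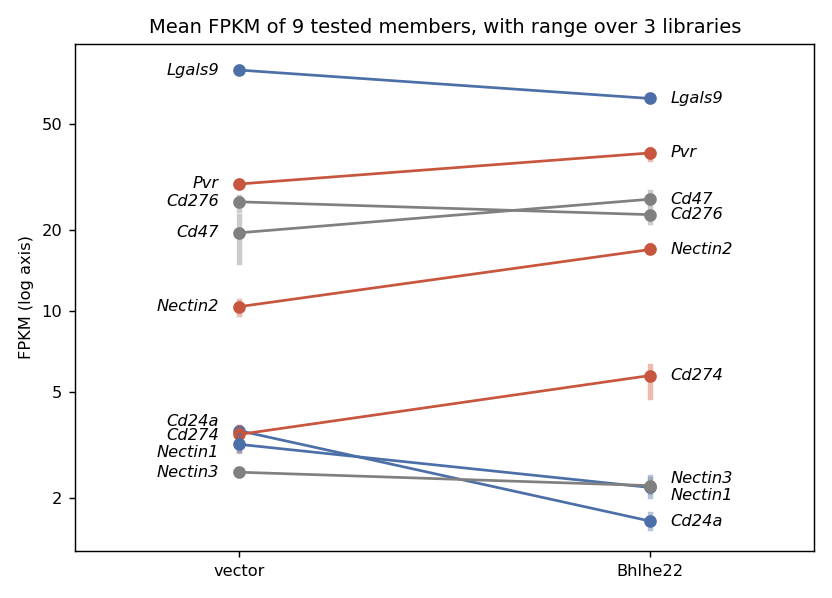
Mean FPKM (log axis) of the 9 tested members in vector and Bhlhe22 cells, with the range over 3 libraries as a pale bar; red lines were called higher, blue lower, grey not called. On the deposited lengths Cd274 leaves the level it shared with Cd24a and Nectin1, and the lines of Cd47 and Cd276 cross. On annotated exon lengths Cd47 would stay below Cd276 in both groups, and Cd24a and Nectin1 would stand above Cd274 in vector cells.

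Receptors of these ligands belong mostly to immune cells, and most were listed at 0 or at few counts. Pdcd1, Cd226, Ctla4 and Sirpa were listed at 0 in all 6 libraries. Of 14 receptor genes 5 passed the filter, with 0 higher and 2 lower, beside the 19.6% called over all tested genes. Tigit, picked after its values were seen, was detected in every library, with 169, 170 and 157 counts in vector and 103, 145 and 180 counts in Bhlhe22 libraries (log2 fold change -0.22, 95% interval -0.52 to 0.09, edgeR adjusted p = 0.291). No other annotated exon overlaps Tigit. Havcr2, which encodes the galectin-9 receptor TIM-3, had 102, 122 and 133 counts in vector and 57, 64 and 103 counts in Bhlhe22 libraries (log2 fold change -0.67, edgeR adjusted p = 0.0165). Its call was lost without vector replicate 1, 2 or 3 or Bhlhe22 replicate 2 (adjusted p 0.0567 to 0.0679). Siglecg, a receptor of CD24, was lower on 5 counts in each Bhlhe22 library (log2 fold change -1.79, edgeR adjusted p = 0.0284). It kept its call in 2 of the 4 fits that could test it, and not without Bhlhe22 replicate 2 or 3.

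Of 35 tested genes that control PD-L1, 2 were higher and 3 lower, beside the 19.6% called over all tested genes, with a median log2 fold change of 0.05. The interferon pathway gene Irf1 (-0.28) was not called, and Cmtm6, whose product protects PD-L1 from degradation, was at 59.5 ± 0.584 CPM in vector and 61.8 ± 3.81 CPM in Bhlhe22 cells (log2 fold change 0.05, 95% interval -0.13 to 0.23). Socs3, a feedback inhibitor of cytokine signalling, was lower (-0.45, edgeR adjusted p = 0.0161), though not without vector replicate 1 or 3 (adjusted p 0.0718 and 0.0759). Btrc (0.31), Rela (0.29), Cmtm4 (-0.51) and B3gnt3 (-0.29) each kept their call in 1 or 2 of the 6 fits that left out a library. They lost it without any vector replicate or without Bhlhe22 replicate 2, and Btrc and Rela also without Bhlhe22 replicate 3.

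Among 22 tested genes for partners and processing of CD47 and CD24 and other phagocytosis signals, 0 were higher and 5 lower. The share called over all tested genes was 19.6%, with 10.4% higher and 9.28% lower. These 22 genes had a median log2 fold change of -0.16. Thbs1, for the CD47-binding matrix protein thrombospondin-1, went from 65.9, 74.1 and 63.1 CPM in vector to 32.7, 41.6 and 45.0 CPM in Bhlhe22 libraries (log2 fold change -0.76, edgeR adjusted p = 0.0082), and held without each library in turn. Qpctl, the enzyme that modifies CD47 for SIRPα binding, had a log2 fold change of -0.14 and was not called. B2m was also not called (-0.14). Cd9 (-0.46), Anxa1 (-0.35) and Xkr8 (-0.55) completed the lower genes beside Siglecg; Cd9 was not called without vector replicate 1 or 3, and Anxa1 and Xkr8 were called only without Bhlhe22 replicate 1 among the 6 such fits.

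Of 21 tested nectin partners 2 were higher and 2 lower, beside the 19.6% called over all tested genes. Their median log2 fold change was -0.09. F11r, for the junctional adhesion molecule JAM-A, went from 77.7 ± 3.34 to 107 ± 7.81 CPM (log2 fold change 0.46, edgeR adjusted p = 0.00763) and held without each library in turn. Afdn, the adaptor that ties nectins to actin, was not called (-0.33). Pard3 (0.44), Cadm1 (-0.28) and Vcl (-0.61) made up the other calls, each lost when any vector replicate was left out or Bhlhe22 replicate 2 was, and Pard3 and Cadm1 also without Bhlhe22 replicate 3.

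Of 16 other tumor-cell ligands tested, 3 were higher and 3 lower, beside the 19.6% called over all tested genes. Their median log2 fold change was -0.17. Cd40, a costimulatory receptor of the TNF receptor family, had 8.15, 5.97 and 6.88 CPM in vector and 14.3, 13.1 and 11.6 CPM in Bhlhe22 libraries (log2 fold change 0.89, edgeR adjusted p = 0.00743) and held in each such fit. Icosl (0.47), the ligand of ICOS, and H2-T23 (0.38), a ligand of NKG2A, were higher. Vcam1 (-0.43), an integrin ligand, Cadm1, a ligand of CRTAM, and Ulbp1 (-0.78), a ligand of NKG2D, were lower. Vcam1 lost its call without vector replicate 1 or 2. Icosl, H2-T23 and Ulbp1 lost theirs without any vector replicate or without Bhlhe22 replicate 2, and Icosl also without Bhlhe22 replicate 3.

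Proteases that can shed surface proteins gave 3 higher and 1 lower of 15 tested, beside the 19.6% called over all tested genes. Their median log2 fold change was 0.08. Mmp13, a collagenase, went from 9.92 ± 1.03 to 22.6 ± 1.52 CPM (log2 fold change 1.18, edgeR adjusted p = 8.2e-04) and held without each library in turn. Rhbdf2 (0.39), Adam8 (0.32) and Mmp3 (-1.03) were called with all libraries and in 1, 2 and 1 of the 6 fits that left out a library. They were lost without any vector replicate or without Bhlhe22 replicate 2, and Rhbdf2 and Mmp3 also without Bhlhe22 replicate 3.

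**Figure D5:**
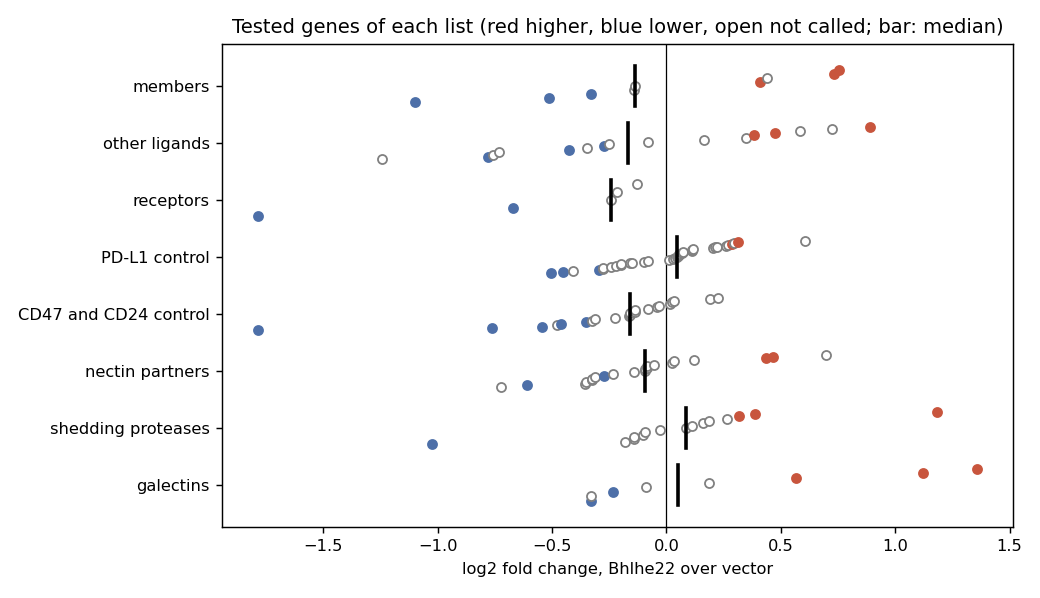
Log2 fold change (Bhlhe22 over vector) of each tested gene in the members' list and 7 related lists; red was called higher, blue lower, open not called, and the black bar is the list's median. The medians lie between -0.24 and 0.08, and calls in both directions appear in all lists except the receptors and the CD47 and CD24 list, which have lower calls only.

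The genes whose pattern over the 6 libraries was closest to that of each called member were found by Pearson's r of log2 CPM over 10125 other protein-coding genes, all averaging 5 CPM or more. They were Pttg1ip (r = 0.998) and Btg1 (0.993) for Cd274, Stambpl1 and Ptprn (both 0.999) for Nectin2, and for Pvr they included Gpr137b (0.998). For the lower members they were Rnf168 (0.998) and Mboat1 (0.997) for Cd24a, Dhrs13 (0.999) and Dvl2 (0.996) for Nectin1, and Nusap1 (0.998) and Sumo2 (0.997) for Lgals9. These values mostly restate the difference between groups, since from 270 genes for Cd274 to 635 for Nectin2 had an r above 0.95. With 6 libraries that share 2 group means they are descriptions only.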

How the data were processed

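RNA-seq counts per gene and FPKM were deposited by the authors for 3 vector and 3 Bhlhe22 libraries, which were grouped by their titles. The submitters' processing notes name the tools HISAT2 2.1.0, CASAVA 1.8, edgeR and StringTie 1.3.4b and the build GRCm38, without roles; the annotation release, filters and strandedness are not stated there. The deposited FPKM values came from the same counts: all 10435 genes counted 100 times or more in every library gave 1 length within 0.001%.

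Counts were tested with edgeR 4.0.16 in R 4.3.3 (TMM, filterByExpr with minimum count 10 and total 15, robust quasi-likelihood fit, Benjamini-Hochberg at 0.05 over all genes), without covariates. The script was checked on simulated data. The floor of 3 counts (0.119 to 0.197 CPM) covers counting error only. Exon overlaps came from GENCODE M21, promoters from RefSeq GRCm38.p6, and transcript matches from megablast.

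Alternatives were DESeq2 1.42.0, limma 3.58.1 (voom, and log2 FPKM with pseudocounts of 1 and 0.1), other scalings and filters, a replicate block, protein-coding genes alone and each library left out. Members, lists and the rule for named genes (all members, up to 6 called genes per list with the smallest adjusted p, 11 fixed genes, and the 2 genes most like each called member) were chosen with earlier results of these data known. The list around Cd274 includes 2610016A17Rik, which lies elsewhere on chromosome 19 and was not tested. Python 3.11.15, pandas 2.3.3 and matplotlib 3.10.9 made tables and plots. Some genes that these rules name are not reported here.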

Additional observations from a re-analysis of the deposited data

How the results depend on the processing

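Of 162 log2 fold changes of members recomputed under the alternatives, 155 kept their direction and their side of the threshold, 6 lost the call, 1 gained it and 0 changed sign. Outside the fits that left out a library, the 1 that changed was Cd47, called by DESeq2 (0.43). Over the fits without each library the log2 fold change ran from -0.58 to -0.45 for Nectin1 and from -0.37 to -0.31 for Lgals9, and the members called lower from 1 to 3. Without Bhlhe22 replicate 1 the genes called higher and lower over the whole table numbered 2345 and 2337, against 1520 and 1361 with all libraries. The lowest numbers, 715 and 633, came without vector replicate 1. Same-numbered libraries of the groups did not deviate together (r of 0.045, 0.022 and 0.025). With the replicate block 1086 genes were higher and 993 lower, and the same 6 members were called, Nectin2, Cd274 and Pvr higher and Cd24a, Nectin1 and Lgals9 lower. Near 0, Jak2 ran from -0.0088 (without Bhlhe22 replicate 3) to 0.118 and Qpctl from -0.217 to 0.0019 (without vector replicate 1). Of 822 values of other named genes, 675 kept direction and call, 143 lost the call, 2 gained it and 2 changed sign. Among 432 list counts, 102 moved by over 1.5 times or to or from 0. Of 36 called genes of the other lists, 10 kept their call without each library in turn. Depth limits Pdcd1lg2, Siglecg and other genes of few counts. The causes of lost calls were not tested.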
